A study of Mus musculus with 12 samples.

Results

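The p53 target genes followed here were 10 genes chosen by name, *Cdkn1a*, *Ccng1*, *Bax*, *Bbc3*, *Phlda3*, *Trp53inp1*, *Mdm2*, *Zmat3*, *Sesn2* and *Gdf15*, among the 19424 genes whose counts could be compared. RNA came from hearts of mouse embryos labelled CD1, from lines kept on a CD1-ICR background, at E11.5 and E12.5. Control embryos were *Mesp1Cre*;*Hira*+/fl and carried 1 wild-type and 1 floxed allele of *Hira*, and mutant embryos were *Mesp1Cre*;*Hira*-/fl and carried 1 null and 1 floxed allele. All embryos therefore carried the Cre, which recombines in the *Mesp1* lineage, the early mesoderm that gives most of the heart, so heart cells of other origin (neural crest, for example) keep their floxed allele in mutants, where the other allele is null. Each of the 4 groups had 3 libraries. Nothing in the labels says whether hearts were pooled or which embryos were littermates, so the p-values below measure the spread between these libraries.

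p53, encoded by *Trp53*, is a transcription factor that is stabilised by DNA damage and other stress. Some of its target genes halt the cell cycle, others start apoptosis, and others repair damage or feed back on p53 itself. MDM2 and MDM4 restrain p53, and because *Mdm2* is itself a target, the pathway limits its own activity. HIRA is the chaperone that places the histone variant H3.3 outside replication.

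Promoter sequence from RefSeq (GRCm38.p6) was available for 8 of the 10 genes, in 12 windows around annotated start sites, and none was given for *Trp53inp1* or *Zmat3*. p53 binds as a tetramer to a pair of 10-base half-sites, and the windows were searched on both strands for the exact half-site consensus. It was present in 4 of the 12 windows (33.3%), 1 each of *Cdkn1a*, *Ccng1*, *Bax* and *Mdm2*, and in 8.36% of all 32851 windows. The stretches that hold it are printed 5′ to 3′ in the direction of each gene, with the matches in capitals, because they show which of the genes discussed below carry these letters close to a start site.

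Cdkn1a, chr17:29090871-29090972, + strand: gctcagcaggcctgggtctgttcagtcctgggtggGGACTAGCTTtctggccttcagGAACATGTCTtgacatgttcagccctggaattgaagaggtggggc

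Ccng1, chr11:40755427-40755506, - strand: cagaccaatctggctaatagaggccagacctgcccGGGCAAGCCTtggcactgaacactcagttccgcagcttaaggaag

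Bax, chr7:45467055-45467134, - strand: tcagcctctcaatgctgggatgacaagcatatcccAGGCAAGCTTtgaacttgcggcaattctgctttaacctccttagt

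Mdm2, chr10:117710900-117710979, - strand: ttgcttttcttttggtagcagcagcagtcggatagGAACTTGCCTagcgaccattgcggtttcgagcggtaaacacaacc

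No annotated exon (GENCODE vM21) overlaps any of the 4 stretches. The *Cdkn1a* matches begin 73 and 51 bases before the more upstream of its 2 annotated starts. The other matches begin 185 bases (*Ccng1*), 201 bases (*Bax*) and 186 bases (*Mdm2*) before the start. When a full site was asked for, that is 2 half-sites at most 13 bases apart with at most 1 mismatch each outside the 4-letter core, it was found in 1 of the 12 windows, that of *Cdkn1a*, against 1.39% of all windows. The windows of *Sesn2*, *Phlda3*, *Bbc3* and *Gdf15* held no exact half-site, which says only that these letters are not in these windows.

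The libraries held between 11994148 and 17483982 counts on genes. *Hira*, the targeted gene, had 1216, 1334 and 977 counts in E11.5 controls and 1149, 938 and 735 in E11.5 mutants, and 1183, 1533 and 988 in E12.5 controls against 1191, 1217 and 1076 in mutants. The fitted log2 fold changes were -0.26 (SE 0.14) at the earlier stage and -0.01 (SE 0.12) at the later one, with adjusted p of 0.607 and 0.962 (edgeR's quasi-likelihood test). Whole-gene counts do not resolve the deleted exon, so this check can neither support nor question the labels. E11.5 Mutant replicate 3 stood apart. It was the shallowest library, and against the mean of the other E11.5 mutants genes in the shortest quintile of length (up to 1725 bases) had a median log2 ratio of 0.40 and those in the longest quintile (from 5011 bases) one of -0.37. E11.5 values of the 9 genes tested, and of *Trp53* and *Mdm4*, are therefore given with and without it. Those of the other genes named below include it, and their dependence on it is not shown. It was also the only male among the E11.5 mutants, while all 3 E11.5 controls were male, by counts of Y-linked genes. At E12.5 each genotype had 1 male.

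Cardiomyocyte markers summed to between 14346 and 21915 CPM, which are counts scaled to a common library size, in every library, as the heart label implies, and 0 of 7 passed an adjusted p of 0.05 between genotypes at either stage. Markers of some other cells differed with genotype. Of all genes tested, 2.73% passed the adjusted p as higher and 2.27% as lower at E12.5 (edgeR). In the joint fit of both stages 3.78% passed as higher. At E11.5, 0.115% passed the adjusted p with at least a 1.5-fold difference, and 10.2% had an unadjusted p under 0.05. In E12.5 hearts the 7 erythroid markers tested summed to 2083 to 2632 CPM in mutants and 3792 to 6177 CPM in controls, with 5 of 7 lower. At E11.5 the erythroid sums overlapped, at 4411 to 5533 CPM in mutants and 4281 to 5359 CPM in controls, and 0 of 7 passed. The 7 macrophage markers summed at E12.5 to 58.3 to 78.5 CPM in mutants and 115 to 145 CPM in controls, with 4 of 7 lower. At E11.5 the macrophage sums were 31.4 to 39.5 CPM and 69.4 to 128 CPM, with 1 of 7 lower. Both neuronal markers tested, *Prph* and *Tubb3*, were higher in E12.5 mutants, and that list summed to 13.7 to 19.5 CPM against 5.61 to 6.64 CPM. At E11.5 its sums were 16.6 to 33.4 CPM in mutants and 8.80 to 16.0 CPM in controls, and neither gene passed. The 5 cushion mesenchyme markers summed to less in mutants at both stages, 1070 to 1397 against 1418 to 1629 CPM at E11.5 and 1017 to 1142 against 1155 to 1711 CPM at E12.5. Of the 5 genes, 0 had an unadjusted p under 0.05 at E11.5 (edgeR). At E12.5 only 1 did, *Postn*, which was lower and passed the adjusted p. The list's median log2 fold changes were -0.13 and -0.09. Of 6 endothelial and endocardial markers 0 passed at either stage (edgeR; 3 at each had an unadjusted p under 0.05), and 2, *Pecam1* and *Nfatc1*, were higher in the joint fit of both stages. The 6 epicardial markers had medians of -0.73 (E11.5) and 0.07 (E12.5) on the log2 fold scale, and 0 of 6 passed at either stage (edgeR), with 6 at an unadjusted p under 0.05 at E11.5 and 0 at E12.5. The 5 liver markers summed to 0.898 to 24.8 CPM in E11.5 controls and 0.665 to 56.5 CPM in mutants. At E12.5 they summed to 3.75 to 5.50 and 3.06 to 50.2 CPM. Of those tested 0 passed at either stage (edgeR), and *Alb* was higher in the joint fit. The 6 skeletal muscle markers summed to 26.2 to 33.1 CPM in E11.5 controls and 15.7 to 20.8 CPM in mutants. Their E12.5 sums were 20.4 to 27.5 and 21.1 to 34.7 CPM, and 0 passed at either stage. In whole hearts, fewer cells of a type and less RNA per cell cannot be told apart, and the part of these markers in the values below was not tested.

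The 10 genes covered a wide range of levels. Per gene length, *Bax*, a pore-forming member of the BCL2 family, was the highest at 103 ± 20.3 RPKM (SD over the 12 libraries), followed by *Ccng1*, which encodes cyclin G1, at 61.6 ± 7.56 RPKM. *Mdm2* followed at 22.5 ± 2.32 RPKM and *Phlda3*, whose product competes with AKT for membrane lipids, at 16.1 ± 2.82 RPKM. *Cdkn1a*, which encodes the CDK inhibitor p21, stood at 11.5 ± 2.66 RPKM. *Trp53inp1*, whose product takes part in stress signalling and autophagy, had 7.91 ± 1.07 RPKM. *Sesn2*, which encodes sestrin 2, a leucine sensor that restrains mTORC1, had 5.43 ± 1.35 RPKM. The lowest of those tested were *Zmat3*, an RNA-binding protein gene, at 4.05 ± 0.405 RPKM and *Bbc3*, which encodes the BH3-only protein PUMA, at 3.50 ± 0.742 RPKM. The ranges over libraries of neighbours in this order overlapped, except between *Ccng1*, with a lowest value of 50.5 RPKM, and *Mdm2*, with a highest value of 26.9 RPKM, and between *Bbc3* (2.42 RPKM at the lowest) and *Gdf15*. *Gdf15*, a secreted stress cytokine, was at most 0.840 RPKM.

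**Figure D1:**
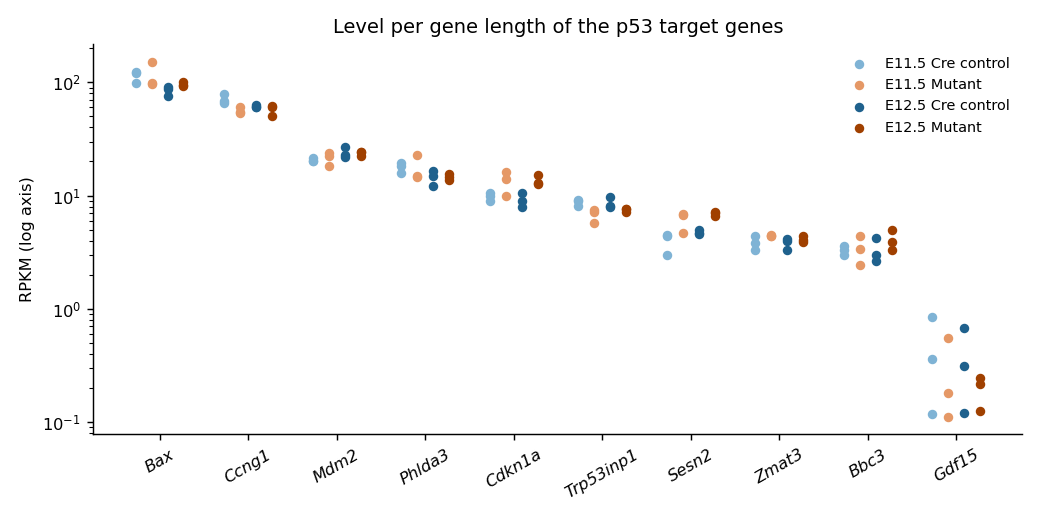
Level per gene length of the 10 genes, in RPKM on a log axis, with 1 point for each of the 3 libraries of the 4 groups. *Bax* averaged 103 RPKM and *Gdf15* 0.322 RPKM over the 12 libraries, and the groups of one gene differed far less than the genes did.

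*Gdf15* had too few counts to compare. It was counted 6, 2 and 13 times in E11.5 controls, 3, 2 and 7 times in E11.5 mutants, 2, 6 and 12 times in E12.5 controls and 2, 4 and 4 times in E12.5 mutants. It fell under the minimum mean of 0.5 RPKM and was not tested, which left 9 genes.

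The first comparison asked whether these genes differed between mutant and control hearts within a stage. Calling a gene required both an adjusted p no higher than 0.05 and at least a 1.5-fold difference. At E12.5, 0 of the 9 genes passed both thresholds, against 2.95% of the 12257 genes tested. Without the fold threshold *Cdkn1a* and *Sesn2* passed, 2 of 9, both higher in mutants, where 2.73% of all genes tested passed in that direction. In the other direction 0 of 9 passed, against 2.27%. The median log2 fold change (log2FC) was 0.11 over the 9 genes and 0.00 over all genes.

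*Sesn2* had 12.4, 13.2 and 12.3 CPM in the E12.5 controls and 18.9, 17.4 and 18.5 CPM in the mutants. All 3 mutant hearts lay above all 3 controls, and the gap between the groups was wider than the spread within either. The log2FC was 0.53 (SE 0.11), a fold of 1.44, with an adjusted p of 0.0202 (edgeR). At E11.5 *Sesn2* had 12.0, 11.8 and 7.91 CPM in controls and 17.9, 18.4 and 12.5 CPM in mutants. The groups did not overlap there either, but the lowest mutant, replicate 3, was close to the highest control. The E11.5 log2FC was 0.62 (SE 0.23) with an adjusted p of 0.370, and 0.77 (SE 0.21) with an adjusted p of 0.166 without that library (edgeR).

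*Cdkn1a* had 16.0, 21.4 and 18.1 CPM in E12.5 controls and 31.0, 26.1 and 25.8 CPM in mutants. As with *Sesn2*, every mutant heart exceeded every control heart. Its log2FC was 0.58 (SE 0.13), a fold of 1.49, with an adjusted p of 0.0277 (edgeR). At E11.5 the controls had 21.5, 20.3 and 18.1 CPM and the mutants 28.5, 19.9 and 32.4 CPM. Mutant replicate 2 lay among the controls and the groups overlapped. The E11.5 log2FC was 0.43 (SE 0.19) with an adjusted p of 0.496, and 0.27 (SE 0.18, adjusted p 0.456) without Mutant replicate 3 (edgeR). An exact two-sided permutation test of 3 libraries against 3 cannot go under 0.1, which both genes reached at E12.5.

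Whether these 2 genes passed the adjusted p at E12.5 depended on single libraries. For *Sesn2* the adjusted p (edgeR) was 0.0696 without control replicate 1, 0.0556 without control replicate 2 and 0.0735 without mutant replicate 1. For *Cdkn1a* it was 0.0994 without control replicate 1, 0.0587 without control replicate 3 and 0.0998 without mutant replicate 1. The log2FC values stayed between 0.50 and 0.57 for *Sesn2* and between 0.48 and 0.70 for *Cdkn1a* as each E12.5 library was left out. When all 12 libraries entered one fit and shared 1 estimate of the spread, the E12.5 adjusted p were 0.203 for *Sesn2* and 0.148 for *Cdkn1a*.

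**Figure D2:**
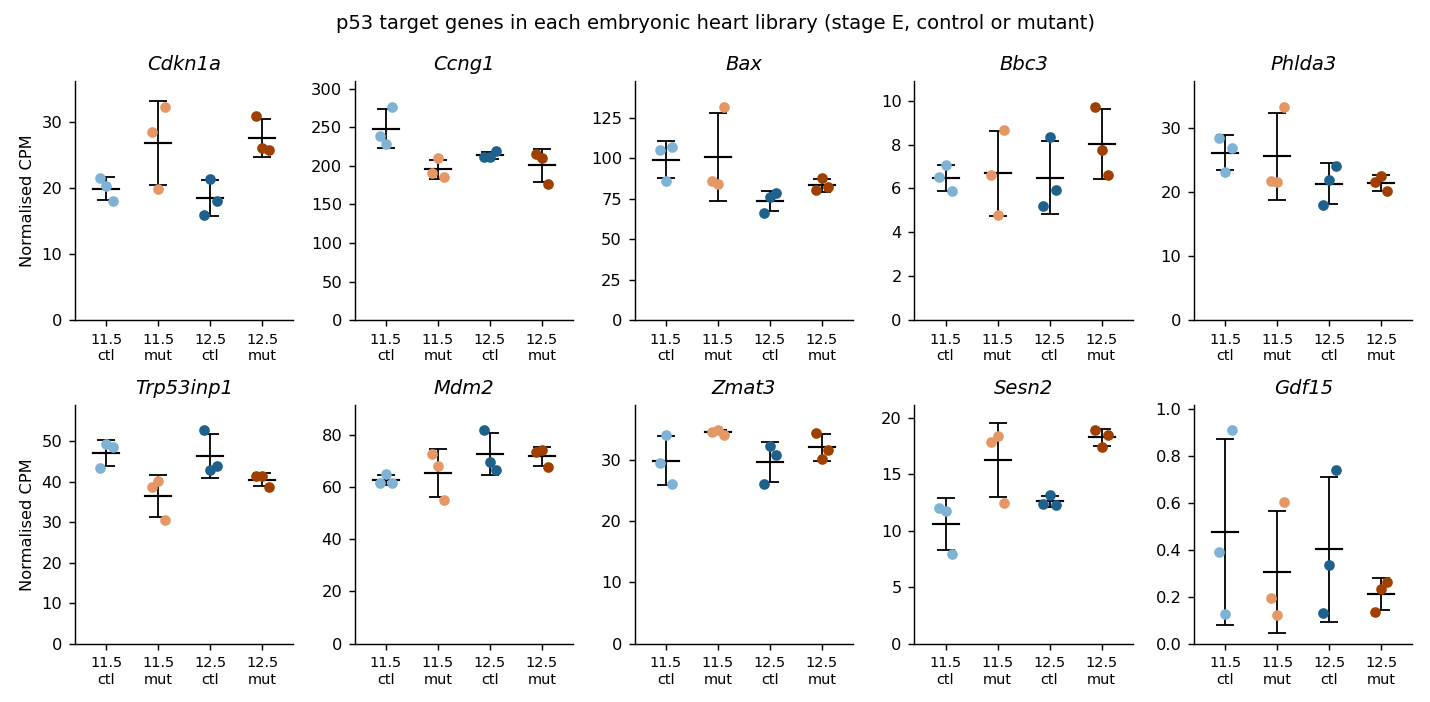
Normalised counts (CPM) of the 10 genes in each library (points), with the mean (bar) and SD (whisker) of the 3 libraries of a group, from E11.5 control to E12.5 mutant. At E12.5 the mutant hearts held 17.4 to 18.9 CPM of *Sesn2* and the controls 12.3 to 13.2 CPM.

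The remaining growth arrest and feedback genes did not rise with *Cdkn1a* at E12.5. *Ccng1* stood at 214 ± 4.74 CPM in controls and 201 ± 21.6 CPM in mutants (SD, n = 3), a log2FC of -0.09 with a 95% confidence interval of -0.28 to 0.09. *Mdm2* had a log2FC of -0.02 with an interval of -0.22 to 0.18, and *Zmat3* one of 0.11 with an interval of -0.12 to 0.34. These 3 intervals leave out a rise of 1.5-fold. *Trp53inp1* had 52.7, 42.8 and 43.9 CPM in controls and 41.4, 41.5 and 38.6 CPM in mutants. All 3 mutant values lay below all controls, by a log2FC of -0.20 (SE 0.10, adjusted p 0.275, edgeR) that did not pass.

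Among the apoptosis genes, *Bax* had 66.4, 76.2 and 78.3 CPM in E12.5 controls and 80.3, 87.8 and 82.1 CPM in mutants. The mutant values were all higher, with a log2FC of 0.18 (SE 0.08) and an adjusted p of 0.240 (edgeR). *Bbc3* had a log2FC of 0.30 (SE 0.22) and *Phlda3* one of 0.00 (SE 0.12), and their groups overlapped. *Bbc3* was counted only 79 to 149 times per library at this stage, and its interval of -0.18 to 0.78 includes both no change and a rise of 1.5-fold. In all, the groups of 4 of the 9 genes did not overlap at E12.5, 3 higher and 1 lower, against 26.3% of all genes tested.

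At E11.5, 0 of the 9 genes passed both thresholds, against 0.115% of the 12197 genes tested. None passed the adjusted p, *Sesn2* had a fold of 1.54, and 3 had an unadjusted p under 0.05, against 10.2% of all genes. These were *Sesn2*, *Ccng1* and *Trp53inp1*. *Ccng1* had 239, 229 and 277 CPM in controls and 191, 210 and 186 CPM in mutants, so that all mutants were lower. Its log2FC was -0.35 (SE 0.12, adjusted p 0.365), and -0.32 (SE 0.13, adjusted p 0.261) without Mutant replicate 3 (edgeR). *Trp53inp1* had 43.3, 49.4 and 48.5 CPM in controls and 38.7, 40.2 and 30.6 CPM in mutants. Its log2FC was -0.37 (SE 0.14, adjusted p 0.393), and -0.26 (SE 0.12, adjusted p 0.307) without Mutant replicate 3, in which this gene of 5392 bases was lowest. Every mutant heart lay below every control for both genes, with or without that library, but neither difference passed the test.

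*Zmat3* had 29.5, 34.0 and 26 CPM in E11.5 controls and 34.6, 34.8 and 34.1 CPM in mutants. The mutants were all higher and very close to each other, with a log2FC of 0.21 (SE 0.14, adjusted p 0.713, edgeR) that was also 0.21 without Mutant replicate 3. With *Sesn2*, *Ccng1* and *Trp53inp1*, it made 4 of 9 genes whose groups did not overlap at E11.5, against 16.3% of all genes tested.

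Several E11.5 values of the shorter genes rested on Mutant replicate 3. *Bax*, 869 bases long, had 132 CPM in that library and 85.8 and 83.9 CPM in the other mutants, with 105, 85.9 and 107 CPM in controls. Its log2FC was 0.02 (SE 0.19) with that library and -0.23 (SE 0.13, adjusted p 0.382, edgeR) without it. *Phlda3*, 1467 bases long, had 33.3 CPM there and 21.7 and 21.6 CPM in the other mutants, and its log2FC went from -0.04 (SE 0.20) to -0.28 (SE 0.14). *Bbc3* went from 0.03 (SE 0.26) to -0.20 (SE 0.25). *Mdm2* had 72.4, 68.1 and 54.8 CPM in mutants and 61.6, 64.8 and 61.3 CPM in controls. Replicate 3 was its lowest mutant, and the log2FC was 0.06 (SE 0.13) with it and 0.16 (SE 0.11) without.

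The second comparison fitted both stages together, with the mutant effect adjusted for stage. Here too 0 of 9 genes passed both thresholds, against 3.22% of the 12270 genes tested. *Sesn2* and *Cdkn1a* passed the adjusted p alone, 2 of 9, both higher, against 3.78% of all genes in that direction and 3.06% in the other. *Sesn2* had a log2FC of 0.58 (SE 0.12, adjusted p 0.0111) and *Cdkn1a* one of 0.50 (SE 0.12, adjusted p 0.0207, edgeR). Without E11.5 Mutant replicate 3 the values were 0.64 (adjusted p 0.00489) and 0.44 (adjusted p 0.0443). *Sesn2* passed in all 12 fits that each left out 1 library, with an adjusted p of at most 0.0290. *Cdkn1a* passed in 9 of 12, and its adjusted p was 0.0529 without E12.5 control replicate 1, 0.0525 without E12.5 control replicate 3 and 0.0570 without E12.5 mutant replicate 1. With genotype permuted within each stage, the exact two-sided p was 0.005 for *Sesn2*, the smallest this test can give, and 0.015 for *Cdkn1a*.

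*Trp53inp1* and *Ccng1* had the opposite sign in this fit. *Trp53inp1*, the lower of the pair, had a log2FC of -0.28 (SE 0.08, adjusted p 0.0622, edgeR). Its mutant hearts lay below the controls of their stage in both stages, and its exact permutation p was 0.005. *Ccng1* had -0.22 (SE 0.08, adjusted p 0.119, edgeR) with an exact permutation p of 0.02. Neither passed after adjustment over all genes. The other 5 genes tested had log2FC values between -0.02 and 0.17, and the interval of *Mdm2* was -0.15 to 0.19.

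**Figure D3:**
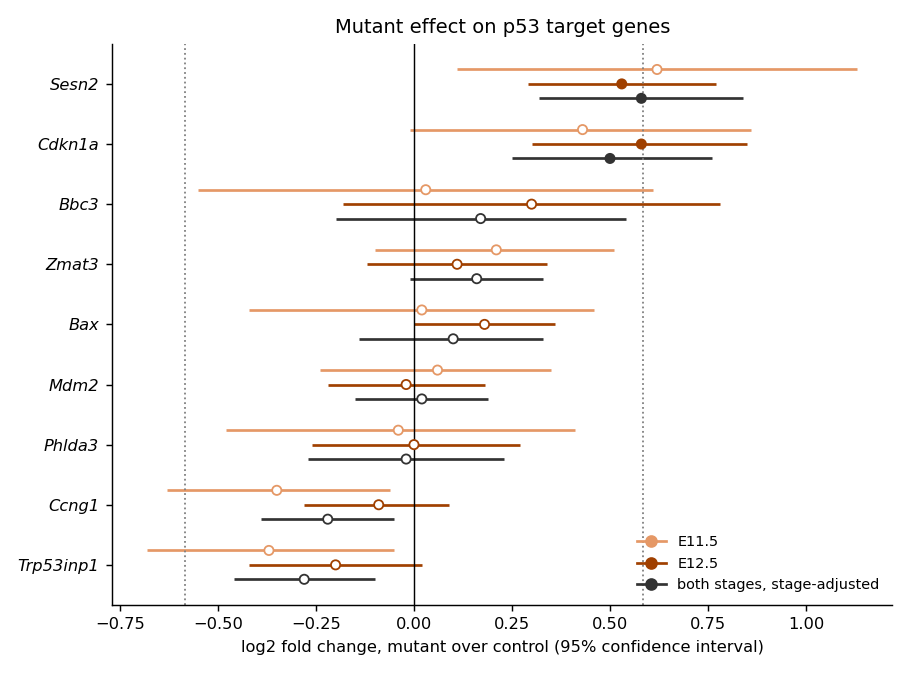
Log2FC of mutant over control for the 9 genes tested, at E11.5, at E12.5 and for both stages with stage adjusted, with 95% confidence intervals. Filled points have an adjusted p of at most 0.05 (edgeR), which *Sesn2* and *Cdkn1a* reached at E12.5 and in the joint fit. Dotted lines mark a fold of 1.5 either way.

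The third comparison tested whether the mutant effect differed between stages. No difference passed, 0 of 9 genes, and the background was 0.00% of 12270 genes. By unadjusted p under 0.05 the count was 0 of 9 against 4.49% of all genes. DESeq2 called 40 genes in all and no member. The differences of log2FC, E12.5 minus E11.5, ran from -0.10 for *Zmat3* to 0.27 for *Bbc3*. That of *Ccng1*, with the smallest p, was 0.25 (SE 0.15, adjusted p 0.956, edgeR). The intervals were wide, from -0.63 to 0.44 for *Sesn2* and from -0.37 to 0.67 for *Cdkn1a*, which leaves room for a larger effect at either stage.

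In control hearts alone, E12.5 was compared with E11.5. These control libraries also enter the comparisons above. Again 0 of 9 genes passed both thresholds, against 5.28% of the 12252 genes tested. *Bax* passed the adjusted p alone, 1 of 9, where 5.81% of all genes passed in that direction. It was lower at E12.5, at 73.6 ± 6.35 CPM against 99.2 ± 11.5 CPM (SD, n = 3), with a log2FC of -0.43 (SE 0.11, adjusted p 0.0393, edgeR). The adjusted p was 0.0986 without E11.5 control replicate 1, 0.0986 without E11.5 control replicate 3, and 0.165, 0.119 and 0.0567 without E12.5 control replicates 1, 2 and 3. All E11.5 controls were male and 1 of 3 at E12.5 was, and with sex in the fit the value was -0.34 with an adjusted p of 0.545. The adjusted p was also above 0.05 with all 12 libraries in one fit (0.106) and in limma (0.0524 to 0.0535 over 3 pseudocounts).

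*Trp53* itself had no call. It stood at 113 ± 16.7 CPM in E11.5 controls and 110 ± 1.84 CPM in mutants, and at 113 ± 8.10 and 99.9 ± 12.0 CPM at E12.5 (SD, n = 3), with log2FC values of -0.04 (SE 0.13) and -0.17 (SE 0.10). Without E11.5 Mutant replicate 3 the first was -0.05 (SE 0.14). *Mdm4* had a log2FC of 0.00 (SE 0.27) at E11.5. Mutant replicate 3 was its lowest library, and the value was 0.29 (SE 0.14) without it. At E12.5 *Mdm4* was at 71.6 ± 7.02 CPM in controls and 60.7 ± 5.52 CPM in mutants, with a log2FC of -0.24 (SE 0.10, adjusted p 0.182, edgeR). In controls *Mdm4* rose from E11.5 to E12.5 by 0.78 on the log2 scale (SE 0.12, adjusted p 0.0108, edgeR). It no longer passed with sex in the fit (0.69, adjusted p 0.257), with all 12 libraries in one fit (0.0633) or without E12.5 control replicate 1 (0.0588). Of the 13 regulators of p53 tested, 0 passed at E11.5 or E12.5, and 1, *Rchy1*, an E3 ligase gene for p53, was lower in the joint fit, with a log2FC of -0.26 (SE 0.07, adjusted p 0.0309, edgeR), against 3.06% of all genes tested. *Rchy1* did not pass without any 1 of 8 of the 12 libraries, namely E11.5 control replicates 1 and 3, E11.5 mutant replicate 2, the 3 E12.5 controls and E12.5 mutant replicates 1 and 3, with adjusted p of 0.0524 to 0.0784. The regulators with the smallest p at a stage were *Hipk2*, a kinase gene of p53, and *Chek1*, a checkpoint kinase gene, at E12.5, with log2FC values of -0.43 and -0.25 and adjusted p of 0.111 and 0.134 (edgeR).

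Of 27 other p53 targets tested, 0 passed the adjusted p at E11.5. At E12.5, 1 rose and 1 fell, shares near the 2.73% and 2.27% of all genes that passed in these directions, with a median log2FC of 0.11 against 0.00 over all genes. *Sesn1*, the paralogue of *Sesn2*, fell. It stood at 44.7 ± 1.61 CPM in E12.5 controls and 32.7 ± 2.25 CPM in mutants (SD, n = 3), with all mutants below all controls and a log2FC of -0.45 (SE 0.09, adjusted p 0.0169, edgeR). The adjusted p was 0.0553 without E12.5 control replicate 1 and 0.138 with all 12 libraries in one fit. At E11.5 *Sesn1* had 41.8 ± 3.09 and 25.6 ± 5.46 CPM, again without overlap, and a log2FC of -0.71 (SE 0.17) with an adjusted p of 0.164 (edgeR). The E11.5 adjusted p was 0.0190 in DESeq2. In edgeR it was 0.0214 with all 12 libraries in one fit and 0.0477 with sex as a covariate. *Sesn1* did not pass at E11.5 under the other alternatives, where the adjusted p reached 0.594. In the joint fit its log2FC was -0.58 (SE 0.10, adjusted p 0.00383, edgeR). The 2 sestrin genes therefore had joint log2FC values of equal size and opposite sign.

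The gene that rose was *Sfn*, which encodes 14-3-3 sigma. It had 0.352 ± 0.278 CPM in E12.5 controls and 1.90 ± 1.27 CPM in mutants (SD, n = 3), a log2FC of 2.36 (SE 0.60, adjusted p 0.0487, edgeR). The control hearts held only 3, 12 and 3 counts and the mutants 19, 18 and 51. The call was lost without control replicate 1 (adjusted p 0.173), control replicate 3 (0.0979) or mutant replicate 1 (0.0719), with all 12 libraries in one fit (0.273), and in limma with a pseudocount of 0.5 (0.0606) or 1 (0.0737). The E11.5 log2FC was -1.56 (SE 0.83), where 1 control held 88 counts and the other libraries 6 to 18. In the joint fit 2 of the 27 other targets rose and 1, *Sesn1*, fell, against 3.78% and 3.06% of all genes. *Btg2*, an antiproliferative transcription cofactor gene, rose with a log2FC of 0.38 (SE 0.07, adjusted p 0.00753, edgeR). *Plk2*, a polo-like kinase gene, had one of 0.36 (SE 0.08, adjusted p 0.0137, edgeR) and passed as well. Mutants lay above controls at each stage in both genes.

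*Sesn2* is also known as a target of ATF4, the transcription factor of the integrated stress response, which raises amino acid synthesis and transport genes. Of 14 genes of that response tested, 0 passed at E11.5, with a median log2FC of 0.29, and 2 rose and 0 fell at E12.5, with a median of 0.17, where 2.73% and 2.27% of all genes passed in these directions. *Asns*, which encodes asparagine synthetase, was at 33.6 ± 1.10 CPM in E12.5 controls and 43.3 ± 2.02 CPM in mutants (SD, n = 3), a log2FC of 0.36 (SE 0.08, adjusted p 0.0333, edgeR). *Atf5*, a transcription factor gene, was at 14.9 ± 1.79 and 22.2 ± 1.72 CPM, a log2FC of 0.57 (SE 0.12, adjusted p 0.0227, edgeR). In the joint fit 3 of 14 rose and 0 fell, against 3.78% and 3.06% of all genes. These were *Asns* (0.42, SE 0.07), *Atf5* (0.52, SE 0.11) and *Ddit4*, an mTORC1 inhibitor gene (0.53, SE 0.12). Their adjusted p were 0.00222, 0.0130 and 0.0150 (edgeR). At E11.5 *Asns* and *Ppp1r15a*, a phosphatase subunit gene that ends the response, had the smallest p. Their log2FC values were 0.47 (SE 0.13) and 0.61 (SE 0.18), with adjusted p of 0.211 and 0.253 (edgeR). With all 12 libraries in one fit *Asns* passed at E11.5 (adjusted p 0.0251, edgeR). It did not pass at that stage under the other alternatives, where the adjusted p reached 0.55.

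Whether *Asns* and *Atf5* passed at E12.5 moved with single libraries as well. For *Asns* the adjusted p (edgeR) was 0.1, 0.0927 and 0.0518 without control replicates 1, 2 and 3, and 0.0910 and 0.0993 without mutant replicates 1 and 2. For *Atf5* it was 0.0806 and 0.0645 without control replicates 1 and 2, and 0.0729 and 0.0747 without mutant replicates 1 and 2. With all 12 libraries in one fit they were 0.0986 for *Asns* and 0.131 for *Atf5*.

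*Trib3*, a pseudokinase gene induced by ATF4 and named after its values were seen, had opposite signs at the 2 stages. At E11.5 it had 3.78, 2.18 and 2.94 CPM in controls and 4.93, 5.38 and 6.40 CPM in mutants, and at E12.5 7.69, 5.94 and 9.62 CPM in controls and 5.2, 3.59 and 4.42 CPM in mutants. All mutants were higher at the earlier stage and all were lower at the later one. The log2FC values were 0.90 (SE 0.28, adjusted p 0.279) and -0.82 (SE 0.22, adjusted p 0.0634, edgeR). The E12.5 adjusted p (edgeR) was 0.0342 with no filter on low counts, 0.0331 with the replicate number as a block and 0.0404 with sex as a covariate. It was 0.0247 in DESeq2, and 0.0477, 0.0485 and 0.0484 in limma with pseudocounts of 0.5, 0.1 and 1. The highest adjusted p over the alternatives was 0.178.

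Of 7 other CDK inhibitor and cyclin G genes, 1 rose at E12.5, against 2.73% of all genes, and 0 passed at E11.5. *Cdkn1c*, which encodes p57, stood at 675 ± 53.3 CPM in E12.5 controls and 908 ± 26.9 CPM in mutants (SD, n = 3), a log2FC of 0.43 (SE 0.08, adjusted p 0.0122, edgeR). Its adjusted p was 0.0521 without control replicate 1, 0.0581 without control replicate 2, 0.0567 without mutant replicate 1 and 0.0966 with all 12 libraries in one fit. At E11.5 *Cdkn1c* had a log2FC of 0.32 (SE 0.15), and *Ccng2*, the cyclin G2 gene and a relative of *Ccng1*, had 0.35 (SE 0.13), with adjusted p of 0.520 and 0.369. *Cdkn2d*, another CDK inhibitor gene, had 0.30 (SE 0.08) at E12.5 with an adjusted p of 0.0657. Of 19 proliferation genes, 0 passed at either stage, with medians of 0.04 and 0.00. The smallest p among them were of *Plk1* (0.22, SE 0.12) and *Aurkb* (0.16, SE 0.11) at E11.5, both mitotic kinase genes. At E12.5 they were of *Ccne1*, which encodes cyclin E1 (0.27, SE 0.09), and *Bub1b*, a spindle checkpoint gene (-0.18, SE 0.07).

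Among 15 BCL2 family and caspase genes tested, 1 rose and 1 fell at E12.5, against 2.73% and 2.27% of all genes, and 0 passed at E11.5. The gene that fell was *Bcl2l1*. It encodes the apoptosis inhibitor BCL-XL and passed both thresholds. It stood at 43.8 ± 4.72 CPM in E12.5 controls and 25.8 ± 4.63 CPM in mutants (SD, n = 3), a log2FC of -0.76 (SE 0.13, adjusted p 0.0119, edgeR). With all 12 libraries in one fit it did not pass (-0.77, adjusted p 0.116). At E11.5 its log2FC was -0.63 (SE 0.24, adjusted p 0.387) and in the joint fit -0.70 (SE 0.15, adjusted p 0.0127, edgeR). BCL-XL is strongly expressed in maturing red cells. The erythroid sums given above were lower in the same E12.5 mutants and overlapped between genotypes at E11.5. Their part in these values was not tested. *Bik*, a BH3-only gene, had 15.6 ± 0.785 and 22.5 ± 1.68 CPM at E12.5 (SD, n = 3), a log2FC of 0.53 (SE 0.11, adjusted p 0.0190, edgeR). It did not pass without control replicate 1 (adjusted p 0.0522), control replicate 2 (0.0769), mutant replicate 2 (0.0568) or mutant replicate 3 (0.0505), or with all 12 libraries in one fit (0.186). *Bcl2* had 0.32 (SE 0.16) at E11.5, where its groups overlapped.

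**Figure D4:**
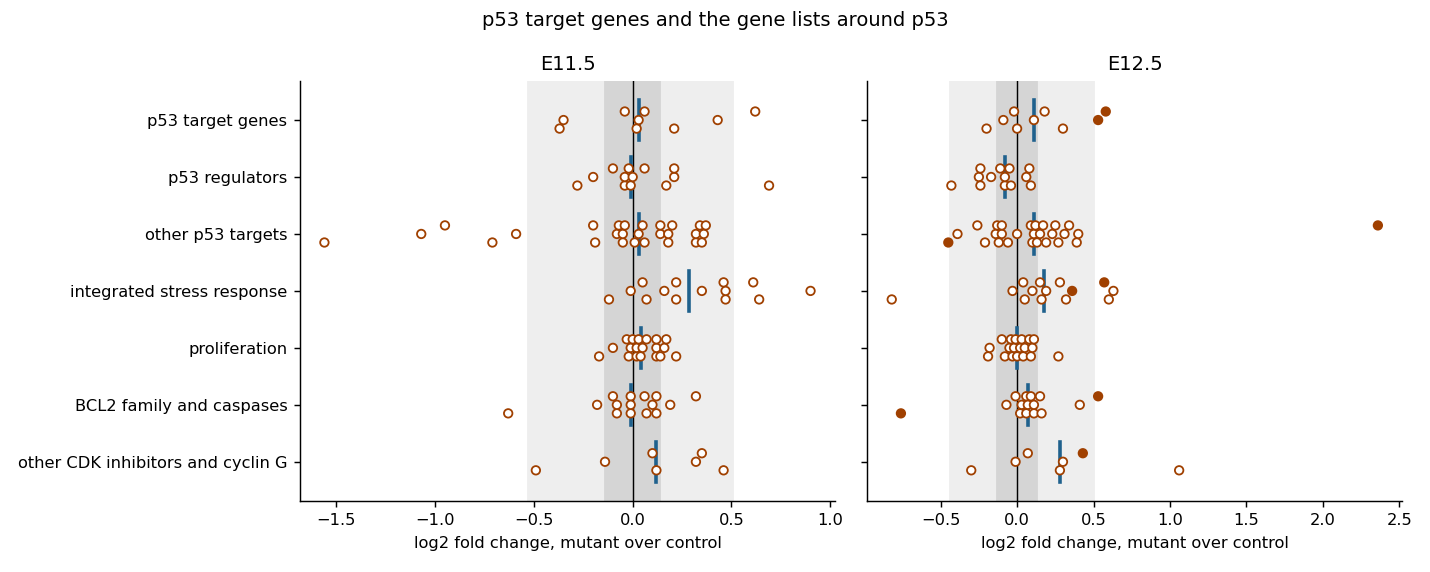
Log2FC of mutant over control at E11.5 and E12.5 for the p53 target genes and for each gene list, with 1 point per gene tested, filled at an adjusted p of at most 0.05 (edgeR), and the list's median as a blue bar. The dark and light bands hold the middle 50 and 90 percent of all genes tested. At E12.5 the filled points are *Cdkn1a* and *Sesn2* among the p53 target genes, *Sfn* and *Sesn1* among the other targets, *Asns* and *Atf5*, *Bik* and *Bcl2l1*, and *Cdkn1c*.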

How the data were processed

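Heart RNA was extracted with a QIAGEN kit from frozen hearts and sequenced as paired ends. The submitters' processing notes name Bowtie2 and DESeq and the build mm10, and counting, annotation and strand use are not given in the sources used here. The authors deposited 1 table named RPKM (treated as a score) for 20368 genes and, for 19424 of them, their group averages of the raw counts, which are means of whole counts and here have the unit of expected count values because a mean need not be whole. Each deposited score was a whole count times gene length times a library factor. Dividing these out with the averages gave counts of 17827 genes within 2.53e-09 of whole numbers, and another 1597 had none. The authors' fold changes, z scores and p-values were not used. Because counts were recovered, edgeR 4.0.16 (R 4.3.3) was used with TMM, a minimum mean of 0.5 RPKM over the libraries fitted, and Benjamini-Hochberg adjustment, at the study's thresholds of 0.05 and 1.5-fold. CPM use TMM-scaled totals of all 12 libraries. RPKM were computed from CPM and the authors' gene lengths. Intervals are 95% from edgeR's standard error, and single genes also had exact permutation tests of log2 CPM.

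The members and gene lists were chosen with earlier results of these data known. Named genes were all members, *Hira*, *Trp53*, *Mdm4* and, per list, every gene called at both thresholds at a stage or otherwise the 2 with the smallest p, and genes past the adjusted p, which, like *Trib3*, were added after values were seen. Listed genes *Cop1*, *Tigar*, *Pidd1* and *Adgre1* were matched by identifier, and 4 listed genes of the X chromosome were not in the comparisons. Count recovery and the edgeR test were among the steps tried on simulated data, and the DESeq2 and limma fits were not. Alternatives were DESeq2 1.42.0, limma 3.58.1, other filters and scalings, sex, a replicate block, 12 libraries in one fit, and each library left out.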

Additional observations from a re-analysis of the deposited data

Results flagged for a closer look

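*Trib3*, a gene of the integrated stress response, had opposite signs at the 2 stages, with all 3 mutant hearts above all 3 controls at E11.5 and all 3 below at E12.5. The difference of its log2 fold changes, E12.5 minus E11.5, was -1.72 (SE 0.35), with an adjusted p of 0.286 in edgeR and 0.00771 in DESeq2. It passed in DESeq2 only. In limma 0 genes were called for a stage difference at any pseudocount. At most 9.62 CPM were measured in a library.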

How the results depend on the processing

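At E11.5 the 14 genes became 73 with no filter on low counts, 6 at a mean RPKM of at least 5, 248 with DESeq2, 214 with all 12 libraries in one fit and 29 with sex as a covariate, and 0 to 15 as 1 library was left out. At E12.5 the 362 genes became 613 with no fold threshold, 157 at a mean RPKM of at least 5 and 122 with all 12 libraries in one fit, and 151 to 368 as 1 library was left out. The 395 genes of the joint fit became 840 with no fold threshold, 120 at a mean RPKM of at least 5 and 225 in limma with a pseudocount of 1. The 0 genes with a stage difference became 40 with DESeq2 and 0 to 10 as 1 library was left out, the 10 without E11.5 Mutant replicate 3. The 647 genes that differed between control stages became 1402 with no fold threshold, 363 at a mean RPKM of at least 5, 344 with all 12 libraries in one fit and 19 with sex, and 44 to 1407 as 1 library was left out. The higher minimum tests fewer genes and the omissions use fewer samples, and for the rest the cause was not tested.

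Members called were 0 in the 5 comparisons under every alternative but these, a count at its floor that says little about stability. With no fold threshold 2 were called at E12.5, 2 in the joint fit and 1 in controls. As 1 library was left out the count ran from 0 to 1 at E12.5, where the gene was *Cdkn1a*, and from 0 to 1 in the joint fit, where it was *Sesn2* or, without E11.5 Mutant replicate 2, *Cdkn1a*. Genes with a promoter match went from 4 to 1 when a full site was asked for.

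The 33 single results of members given above were recomputed 590 times. In 531 the direction and the side of an adjusted p of 0.05 were the same, in 21 the gene no longer passed and in 1 it newly passed (*Trp53inp1* in the joint fit with DESeq2, adjusted p 0.0239). The sign turned in 37, none of them past the threshold. The members' other stage differences and control changes, not given above, are outside these counts, and some of them turned sign as well. At E11.5, *Bax* became -0.01 under limma at each pseudocount and under the block, and -0.23 to 0.14 as 1 library was left out. *Bbc3* became -0.00 in limma with a pseudocount of 0.1, and -0.20 to 0.23 as 1 library was left out. With sex as a covariate, which at E11.5 rests on 1 male mutant, *Phlda3* became 0.36 and *Mdm2* -0.18, and as 1 library was left out they ran from -0.28 to 0.07 and from -0.02 to 0.16. At E12.5, *Phlda3* became -0.00 in limma and with all 12 libraries, and ran from -0.11 to 0.10, while *Mdm2* ran from -0.08 to 0.07. In the joint fit with sex, *Phlda3* became 0.08 and *Mdm2* -0.03, and as 1 library was left out they ran from -0.12 to 0.04 and -0.02 to 0.06, and *Bax* from -0.00 to 0.16. The stage difference of *Sesn2* became 0.03 with sex and ran from -0.23 to 0.07, and that of *Cdkn1a* from -0.03 to 0.31. *Mdm4* at E11.5 became -0.00 with no filter and with DESeq2, -0.08, -0.09 and -0.07 in limma with pseudocounts of 0.5, 0.1 and 1, -0.07 under the block and -0.86 with sex, and ran from -0.21 to 0.29. *Trp53* at E11.5 ran from -0.13 to 0.08.

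With the replicate number as a block, 73 genes were called at E11.5, 424 at E12.5 and 407 in the joint fit, none of them a member. Under the replicate block *Asns* no longer passed at E12.5 (adjusted p 0.0546, edgeR). *Trib3* did pass there (adjusted p 0.0331, edgeR), as it did under the other alternatives named above for that gene. The labels give no pairing, and deviations of same-numbered libraries correlated at -0.09, 0.50 and 0.34 at E11.5 and at 0.01, 0.04 and -0.06 at E12.5, over 10703 genes. At E11.5, 4 of 6 libraries correlated best with their own number, and 1 of 6 at E12.5.

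*Gdf15* was limited by depth, with at most 13 counts in a library. With 3 libraries a group, the E12.5 differences near 1.5-fold passed or missed the threshold with the omission of 1 library.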
